A study of Homo sapiens with 6 samples.

Results

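The genes described here encode proteins of focal adhesions, the contact sites at which integrins bound to extracellular matrix are tied to the actin cytoskeleton, and of actin stress fibres, the contractile bundles that end in them. The set is a list of 31 gene symbols. All 31 were matched to a row of the count table, which holds 67026 genes, and 29 of them passed the filter on low counts. The tumours were xenografts of the human prostate cancer cell line PC-3 in male NSG mice (NOD.Cg-Prkdcscid Il2rgtm1Wjl/SzJ) aged 4 to 5 weeks, which lack T, B and natural killer cells but keep their own stroma, vessels and myeloid cells. The control group carried a lentiviral hairpin against GFP (shGFP) and the knockdown group a lentiviral hairpin against VCAN (shVCAN), the gene for the matrix proteoglycan versican. All cells had been selected with 2 μg/mL puromycin before they were injected under the skin in a mixture of PBS and Matrigel. Matrigel is a basement membrane extract, and every tumour of both groups had it. The labels number 3 xenografts in each group, called tumours here, and name 1 hairpin per group. The comparison asks whether the versican knockdown goes with other levels of these transcripts. The labels name no separate infections within a group. Whether a difference came from the loss of versican, another effect of the hairpin or the pool of infected cells was not tested.

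At a focal adhesion, talin and kindlin bind the integrin tail and switch the receptor to its active state. The kinases FAK and SRC and scaffolds such as paxillin gather there, and vinculin, alpha-actinin and filamin hold the actin filaments. Versican is a large proteoglycan of the matrix around cells, and loose versican-rich matrix is known for weakening cell attachment. Many genes of this set are textbook targets of the transcription factor SRF, which binds a motif called the CArG box.

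Levels are given as CPM, a gene's share of the library's read counts, scaled with TMM, a method that sets aside genes of extreme change, and a log2 fold change sets shVCAN over shGFP and is given with its standard error (SE). The words called, rose and fell are kept for genes with an adjusted p under 0.05 in the quasi-likelihood test of edgeR, with Benjamini-Hochberg adjustment over all 16254 genes tested. The labels do not tie the tumours to single mice, so the p-values measure the spread between these samples. Spread between hairpins against VCAN, or between separately infected cell pools, is not covered by these p-values. Libraries held 11253058 to 13327617 counts. VCAN itself had 11.0, 9.64 and 11.0 CPM in the shGFP tumours and 5.00, 2.75 and 3.20 CPM in the shVCAN tumours, without overlap. Its log2 fold change was −1.53 (SE 0.207, edgeR adjusted p = 4.59e-07), and an exact two-sided permutation test gave p = 0.1, the smallest that 3 against 3 allows. Epithelial keratins marked the tumours as labelled, with KRT19 at 599 ± 25.0 CPM in shGFP (SD, n = 3).

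Of the 29 members tested, 3 rose, 9 fell and 17 were not called in shVCAN tumours. The 3 that rose were the calponins CNN2 and CNN3 and the kindlin FERMT1. The 9 that fell were FLNA, TLN1, MYH9, VASP, PTK2, TPM2, PARVA, LPP and VCL. Every change was smaller than 2-fold, from −0.56 in FLNA to 0.50 in CNN3 on the log2 scale. The share of members called, 41.4%, lay beside 40.3% of all genes tested, so in this fit the set as a whole was not called more often than the table. By direction, 10.3% of members were higher beside 19.2% of all genes, and 31% were lower beside 21.1%. Members are mostly abundant transcripts, and among the 7840 genes with a mean of at least 20 CPM, which include 28 of the 29, 56.3% were called, 25.1% higher and 31.2% lower. The median log2 fold change of the members was −0.059 beside 0.0014 for all genes, and the median size of change, without sign, was 0.14 beside 0.28. For the 7840 genes with a mean of at least 20 CPM these medians were −0.039 and 0.23. At a log2 fold change of at least 0.5 as well, 0 members were higher beside 8.72% of all genes, and 1, FLNA, was lower beside 8.88%. Group values did not overlap in 12 members (41.4%) beside 48.7% of all genes. With libraries scaled by their size alone, 7 members were higher and 5 lower, beside 5220 and 1896 of all genes tested. An offset took out trends with exonic length and GC content, tumour by tumour. With it 9 members were higher and 10 lower, beside 3156 and 3135 of all genes tested. With the offset the members were thus called more often than the table, and the share among abundant genes was not computed.

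**Figure D1:**
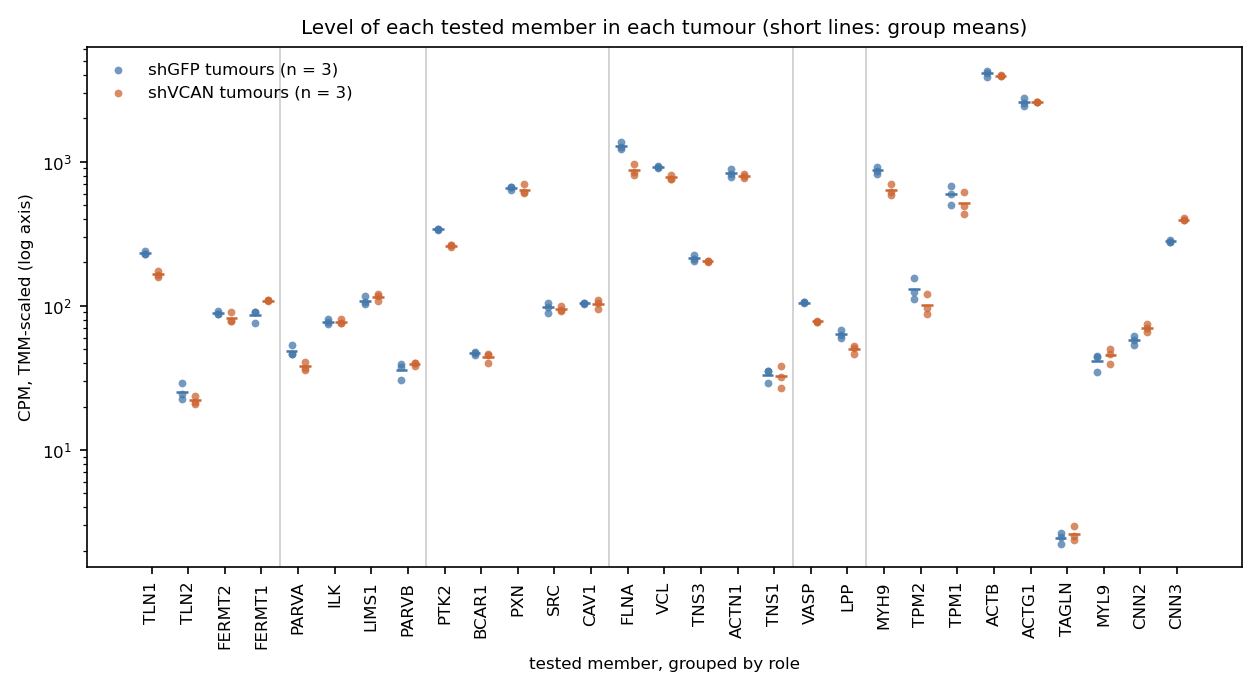
Level of each of the 29 tested members in each tumour, as TMM-scaled CPM on a log axis, ordered by role (vertical lines separate roles). Points are single tumours (3 shGFP, 3 shVCAN) and short lines are group means. The levels span from about 2.46 CPM for TAGLN to 4093 CPM for ACTB in shGFP, and the shift between groups is small beside that span.

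The promoters of 3 members are shown because all hold a CArG box at nearly the same distance from the start of transcription, while their transcripts took 3 different courses: FLNA fell, CNN2 rose and ACTG1 was not called. Each window runs 5′ to 3′ along the gene's strand, from 250 bases before the start to 50 bases after it, from RefSeq on GRCh38.p14, with the CArG box in capitals. The windows lie at chrX:154374585-154374884 (minus strand) for FLNA, chr19:1026358-1026657 (plus strand) for CNN2 and chr17:81512750-81513049 (minus strand) for ACTG1.
FLNA: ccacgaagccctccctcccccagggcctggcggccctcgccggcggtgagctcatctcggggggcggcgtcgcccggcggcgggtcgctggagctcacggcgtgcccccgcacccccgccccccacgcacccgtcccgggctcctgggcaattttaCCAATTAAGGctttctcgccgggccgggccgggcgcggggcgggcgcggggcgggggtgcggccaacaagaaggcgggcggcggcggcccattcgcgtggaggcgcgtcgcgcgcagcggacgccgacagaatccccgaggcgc
CNN2: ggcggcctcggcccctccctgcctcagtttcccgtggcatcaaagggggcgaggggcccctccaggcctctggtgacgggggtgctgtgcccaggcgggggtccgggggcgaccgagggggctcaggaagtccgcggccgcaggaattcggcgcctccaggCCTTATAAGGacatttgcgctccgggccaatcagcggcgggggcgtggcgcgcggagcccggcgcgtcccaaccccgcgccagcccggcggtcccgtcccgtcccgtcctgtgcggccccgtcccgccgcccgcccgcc
ACTG1: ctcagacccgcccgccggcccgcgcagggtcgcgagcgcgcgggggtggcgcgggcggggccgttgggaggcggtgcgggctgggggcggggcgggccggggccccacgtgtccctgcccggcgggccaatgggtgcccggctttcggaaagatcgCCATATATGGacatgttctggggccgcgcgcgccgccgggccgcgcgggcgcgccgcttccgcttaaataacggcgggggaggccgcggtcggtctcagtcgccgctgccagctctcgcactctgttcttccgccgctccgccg
The box begins 94 bases before the start in FLNA, 89 in CNN2 and 94 in ACTG1. A promoter window was given for 24 of the 31 members, in 53 windows since some genes have several starts. ACTB, TAGLN, MYL9, SRC, PTK2, PARVA and FERMT1 had no window and were not searched for motifs. The CArG box, searched on both strands, was found in 5 of the 53 windows (9.43%) beside 1.29% of the 35116 windows of the whole table. Alternative starts of LPP (CCATATTTGG) and ACTN1 (CCAAAAATGG) held the other two. By gene, 20.8% of the members and 1.60% of all genes in the table had at least 1 box. Of the 5 members with a box, 1 rose (CNN2), 2 fell (FLNA and LPP) and 2 were not called (ACTG1 and ACTN1). The TEAD motif, GGAATG or its reverse CATTCC, was in 17.0% of member windows and 14% of all windows, and the Sp1 core, GGGCGG or CCGCCC, in 60.4% and 45%. By gene, the TEAD motif was in 29.2% of members and 16.7% of all genes in the table, and the Sp1 core in 91.7% and 48.3%. Members had more windows per gene (53 for 24 members) than the table (35116 for 27305 genes). All 3 shares by gene are raised in the members by that. Such matches describe the letters in these windows and not binding. SRF, the factor that binds the box, itself fell from 93.6 ± 1.01 to 60.4 ± 2.57 CPM (log2 fold change −0.63, SE 0.0659, edgeR adjusted p = 4.5e-09). Its actin-regulated cofactors MRTFA and MRTFB were not called, at −0.13 (SE 0.108) and −0.24 (SE 0.120), and MYOCD, the muscle cofactor, was too low to test.

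Among the integrin activators, one talin fell and one kindlin rose. TLN1, which encodes talin 1, the rod-like protein that links integrin tails to actin (chromosome 9, 35696948 to 35732395, minus strand, GRCh38), had 228, 240.3 and 229 CPM in shGFP tumours and 163, 175 and 158 CPM in shVCAN tumours. Every knockdown tumour was below every control, with a log2 fold change of −0.49 (SE 0.0543, edgeR adjusted p = 1.29e-08). TLN2, the second talin, was much less abundant and was not called, with 24.3, 29.1 and 22.6 CPM against 20.8, 23.7 and 21.5 CPM (−0.20, SE 0.112). FERMT1, the kindlin typical of epithelia (chromosome 20, 6074845 to 6123544, minus strand), had 90.4, 91.1 and 76.3 CPM in shGFP and 109, 107 and 109 CPM in shVCAN. The groups did not overlap, and the rise was 0.34 (SE 0.0673, edgeR adjusted p = 0.000161). FERMT2, the widely expressed kindlin, overlapped between groups at 91.7, 87.4 and 88.2 against 77.8, 78.4 and 90.3 CPM. Its change of −0.12 (SE 0.068) was called lower only without shVCAN tumour 3 (−0.19, edgeR adjusted p = 0.0407) and with the length and GC offset (−0.18, adjusted p = 0.0125).

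The complex of integrin-linked kinase, PINCH and parvin, which sits on the integrin tail as a unit, changed in 1 of its 4 listed parts. PARVA (alpha-parvin, chromosome 11, 12377185 to 12535356, plus strand) fell from 46.0, 46.2 and 53.0 CPM to 40.8, 37.0 and 36.0 CPM, without overlap (−0.35, SE 0.0849, edgeR adjusted p = 0.00127). That call was lost when libraries were scaled by size alone (−0.18, adjusted p = 0.0852). PARVB (beta-parvin) had 30.5, 39.3 and 37.6 CPM against 40.04, 38.0 and 40.3 CPM and was not called (0.14, SE 0.0929), but was called higher with library size alone (0.31, adjusted p = 0.00915) and with the offset (0.32, adjusted p = 0.00257). ILK, the pseudokinase at the centre of the complex, averaged 77.6 ± 3.02 CPM in shGFP and 77.6 ± 2.89 CPM in shVCAN (SD, n = 3). LIMS1, which encodes PINCH1, averaged 109 ± 7.94 and 115 ± 6.89 CPM, uncalled except with library size alone (0.25, adjusted p = 0.00331). ILK counts are uncertain, because 78.5% of its exonic bases are shared with TAF10 and 2 other genes on the opposite strand. Whether counting used strand is not known. Other members sharing at least 10% with opposite-strand genes were TPM1 (21.4%), ACTN4 (14.2%), PXN (12.4%), TAGLN (11.4%) and VCL (11.1%).

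Of the kinases and scaffolds only PTK2 was called, apart from PXN (0.15, adjusted p = 0.00249) and SRC (0.15, adjusted p = 0.0413), which were called higher with the length and GC offset. PTK2 encodes FAK, the focal adhesion kinase that signals from clustered integrins, and fell from 341, 336 and 342 CPM to 265, 262 and 255 CPM. The 3 tumours of each group lay close together and the groups were well apart (−0.38, SE 0.0477, edgeR adjusted p = 1.19e-07). SRC, the tyrosine kinase that FAK recruits, had 89.6, 104 and 97.9 CPM against 92.8, 100.2 and 91.9 CPM (−0.034, SE 0.0664). PXN, which encodes the scaffold paxillin, had 633, 671 and 666 CPM against 607, 695 and 611 CPM (−0.042, SE 0.0493). BCAR1, the FAK and SRC substrate p130Cas, averaged 46.7 ± 1.13 and 43.8 ± 3.24 CPM. CAV1, the caveola coat protein that SRC phosphorylates, averaged 104 ± 0.726 and 103 ± 7.43 CPM. The level of FAK messenger RNA thus differed between groups beyond the spread of tumours, and those of the 4 other members of this role were not called.

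Among the proteins that hold actin filaments at adhesions, FLNA and VCL fell, VCL not with library size alone. FLNA encodes filamin A, which crosslinks actin into networks and binds integrin tails (chromosome X, 154348524 to 154374638, minus strand). It had 1227, 1360.2 and 1265 CPM in shGFP and 842, 965 and 802 CPM in shVCAN, the largest fold change of the set (−0.56, SE 0.0527, edgeR adjusted p = 5.02e-10). No knockdown tumour reached the lowest control. Put as a share of the summed counts of all members, FLNA held 9.14% ± 0.173 in shGFP and 6.75% ± 0.513 in shVCAN. VCL (vinculin, chromosome 10, 73995193 to 74121363, plus strand), which reinforces the talin link under tension, had 898, 936 and 920.04 CPM against 761, 755 and 813 CPM. Its fall was small and without overlap (−0.24, SE 0.0437, edgeR adjusted p = 4.24e-05), and the call was lost with library size alone (−0.077, adjusted p = 0.201). ACTN1, the crosslinker alpha-actinin 1, had 777, 889 and 816 CPM against 799, 825 and 765 CPM and was not called (−0.055, SE 0.0478). The tensins TNS1 and TNS3, which bind integrin tails in mature adhesions, were not called either, at 33.3 ± 3.50 and 32.3 ± 5.72 CPM for TNS1 and 213 ± 9.32 and 203 ± 0.79 CPM for TNS3. With the length and GC offset ACTN1, TNS1 and TNS3 were called higher (0.14, 0.23 and 0.17).

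VASP and LPP, of the zyxin group that elongates and repairs stress fibres, both fell. VASP, an actin polymerase (chromosome 19, 45506579 to 45526983, plus strand), had 104, 106 and 106 CPM in shGFP and 78.5, 77.4 and 77.6 CPM in shVCAN. Its tumours were the most alike of the 12 called members in both groups, with a coefficient of variation of 0.754% and 0.732%, and the fall was −0.43 (SE 0.0614, edgeR adjusted p = 1.06e-06). LPP, a LIM protein related to zyxin (chromosome 3, 188153284 to 188890671, plus strand), fell from 59.9, 67.4 and 63.0 CPM to 51.2, 45.9 and 52.5 CPM (−0.35, SE 0.0764, edgeR adjusted p = 0.00048). The LPP call was lost with library size alone (−0.18, adjusted p = 0.0605).

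ZYX and ACTN4, for zyxin and alpha-actinin 4, were the 2 members that did not pass the filter. ACTN4 had 0 counts in all 6 libraries, and ZYX had 8 counts over the 6. The genes around ACTN4 were at 0 as well, and whether its transcript was absent or not counted was not tested. From EIF3K to FBXO17 on chromosome 19 (38619082 to 38975910), 14 of 17 protein-coding genes had 0 counts and 2 had 1 count over all libraries. They include EIF3K and HNRNPL, a translation factor subunit and a splicing regulator that growing cells use. The nearby PSMD8, outside the stretch, had 9892 counts. This stretch was picked out after its values were seen. For ZYX, on chromosome 7, the nearby FAM131B, CASP2 and GSTK1 on one side had 1717, 2231 and 4744 counts over the 6 libraries and EPHA1 on the other side had 0, and why its row is nearly empty was not tested. ZYX and ACTN4 enter no comparison here.

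Contractile and filament proteins moved in both directions. CNN3 (calponin 3, chromosome 1, 94896949 to 94927278, minus strand), an actin-binding protein of stress fibres, rose from 278, 277 and 285 CPM to 392, 391 and 405 CPM. All knockdown tumours were above all controls, by 0.50 on the log2 scale (SE 0.047, edgeR adjusted p = 5.14e-10). CNN2 (calponin 2, chromosome 19, 1026581 to 1039068, plus strand) rose from 53.3, 61.8 and 57.6 CPM to 65.6, 75.2 and 70.1 CPM (0.29, SE 0.0749, edgeR adjusted p = 0.00238), again without overlap. MYH9, the heavy chain of non-muscle myosin IIA and the main motor of stress fibres (chromosome 22, 36281277 to 36388067, minus strand), fell from 824, 918 and 858 CPM to 617, 695 and 589 CPM. That fall was −0.45 (SE 0.0521, edgeR adjusted p = 2.77e-08). MYL9, a regulatory light chain of the same myosin class, overlapped between groups, at 41.1 ± 5.75 and 45.2 ± 5.46 CPM, and was called higher only with library size alone (0.31, adjusted p = 0.0130). TAGLN (transgelin, a smooth muscle type actin-binding protein) was near the lower end of detection, with 27 to 29 counts per shGFP library and 33 to 42 per shVCAN library, so its change of 0.098 (SE 0.303) was poorly determined.

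The cytoplasmic actins were the most abundant members and were not called, except ACTG1 with library size alone (0.17, adjusted p = 0.00482). ACTB had 3868, 4271 and 4139 CPM in shGFP and 3897, 3904 and 3984 CPM in shVCAN (−0.059, SE 0.0396, edgeR adjusted p = 0.247). ACTG1 had 2434, 2755 and 2562 CPM against 2576, 2579 and 2603 CPM (0.0013, SE 0.0421). The shVCAN values of both lay inside the range of the controls. Per kilobase of exonic length in shGFP, ACTB stood at 1163 CPM and ACTG1 at 863 CPM, followed by FLNA at 121, CNN3 at 98.7, MYH9 at 96.2, VCL at 91.9 and PXN at 88.0. In shVCAN CNN3 stood at 139.6 CPM per kilobase, above FLNA at 82.2. The 2 actins have nearly the same coding sequence and many processed pseudogenes, so reads can be shared among them.

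The tropomyosins, which wrap actin filaments and set their access to myosin, differed widely from tumour to tumour within a group, with a coefficient of variation of 15.0% and 18.6% for TPM1 and 17.8% and 17.2% for TPM2 in shGFP and shVCAN. TPM1 had 503, 592 and 681 CPM in shGFP and 492, 619 and 431 CPM in shVCAN, a change of −0.20 that was not called (SE 0.0847, edgeR adjusted p = 0.0558). TPM2 had 111, 124 and 156 CPM against 96.1, 121 and 87.0 CPM. TPM2 was called lower (−0.37, SE 0.0943, edgeR adjusted p = 0.00236) although shVCAN tumour 2 lay above shGFP tumour 1. Both genes were highest in shGFP tumour 3 and, within their group, in shVCAN tumour 2. The summed level of 14 skeletal muscle markers followed the same order, at 258.5, 342 and 465 CPM in shGFP and 220.0, 313 and 208 CPM in shVCAN, most of it from ACTA1 (152, 192 and 262 CPM against 127, 179 and 118 CPM). Of those markers 7 of 10 tested fell, among them NEB, MYH4 and ACTN3, and TNNT3 was at 0. The part of muscle tissue in the tropomyosin values was not tested. Without shGFP tumour 3 the TPM2 call was lost (−0.21, adjusted p = 0.0754), as it was in DESeq2 (adjusted p = 0.158) and with library size alone (−0.20, adjusted p = 0.0929). TPM1 was nearer to 0 and not called with library size alone (−0.037, adjusted p = 0.766) and with the length and GC offset (−0.037, adjusted p = 0.721). It was called lower without shGFP tumour 1 (−0.30, adjusted p = 0.00563), without shVCAN tumour 2 (−0.36, adjusted p = 2.17e-05), with no filter on low counts (−0.18, adjusted p = 0.000621) and with the replicate number as a block (−0.21, adjusted p = 0.0323).

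**Figure D2:**
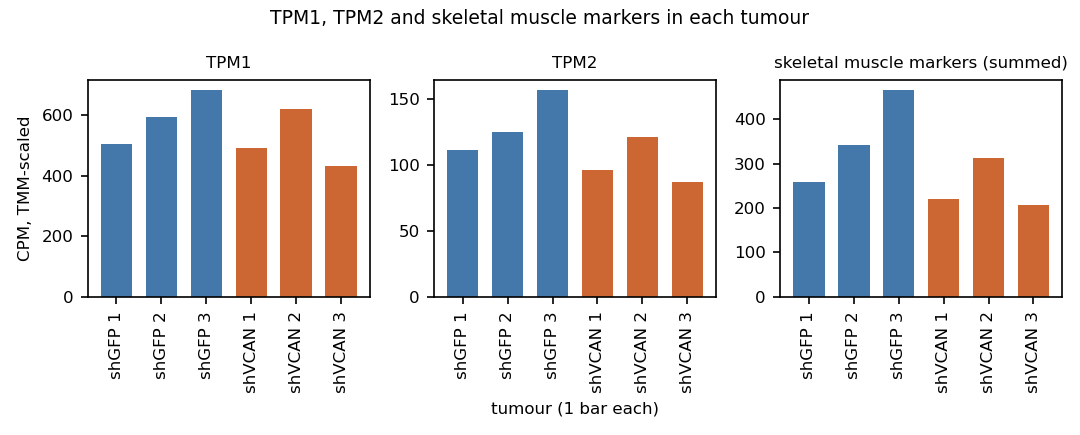
CPM (TMM-scaled) of TPM1, TPM2 and the sum of 14 skeletal muscle marker genes, 1 bar per tumour, shGFP tumours first and shVCAN tumours after them. In all 3 panels shGFP tumour 3 is highest, at 681, 156 and 465 CPM, and shVCAN tumour 2 is the highest of its group, at 619, 121 and 313 CPM.

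Fold changes of the members ran with exonic length, which is taken over all annotated isoforms of a gene and is not the length of the transcript expressed. The Spearman correlation of log2 fold change with exonic length was −0.53 over the 29 members, which share their libraries, and −0.227 over 15997 tested genes. These are correlations across genes, which are not independent replicates. FLNA, TLN1, MYH9, VCL, PTK2, PARVA and LPP, 7 of the 9 members that fell, have exonic lengths of 9.01 to 25.5 kb, and CNN2, CNN3 and FERMT1 have 2.84 to 5.36 kb. VASP at 3.6 kb and TPM2 at 3.25 kb are the short members that fell. Uncalled members lay among the long and the short. TNS1, TLN2, TPM1, TNS3, ACTN1 and BCAR1, of 9.18 to 16.3 kb, stood at −0.20 to −0.042. MYL9, ACTG1, ACTB, ILK, TAGLN and CAV1, of 2.82 to 4.08 kb, stood at −0.059 to 0.14. With the offset for length and GC the falls became −0.33 in FLNA, −0.26 in TLN1, −0.24 in MYH9, −0.23 in PTK2, −0.21 in PARVA and −0.12 in VCL, all still called. VASP stood at −0.41 and CNN3 at 0.37. Scaling by library size alone raised the median of all genes to 0.17, and the falls there were −0.40 in FLNA, −0.33 in TLN1, −0.29 in MYH9, −0.27 in VASP and −0.22 in PTK2, while CNN2 stood at 0.46 and FERMT1 at 0.50. FLNA, TLN1, MYH9, VASP, PTK2, FERMT1, CNN2 and CNN3, 8 of the 12 called members, kept their direction and call in all 16 alternatives of scaling, filter, model and left-out tumour.

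**Figure D3:**
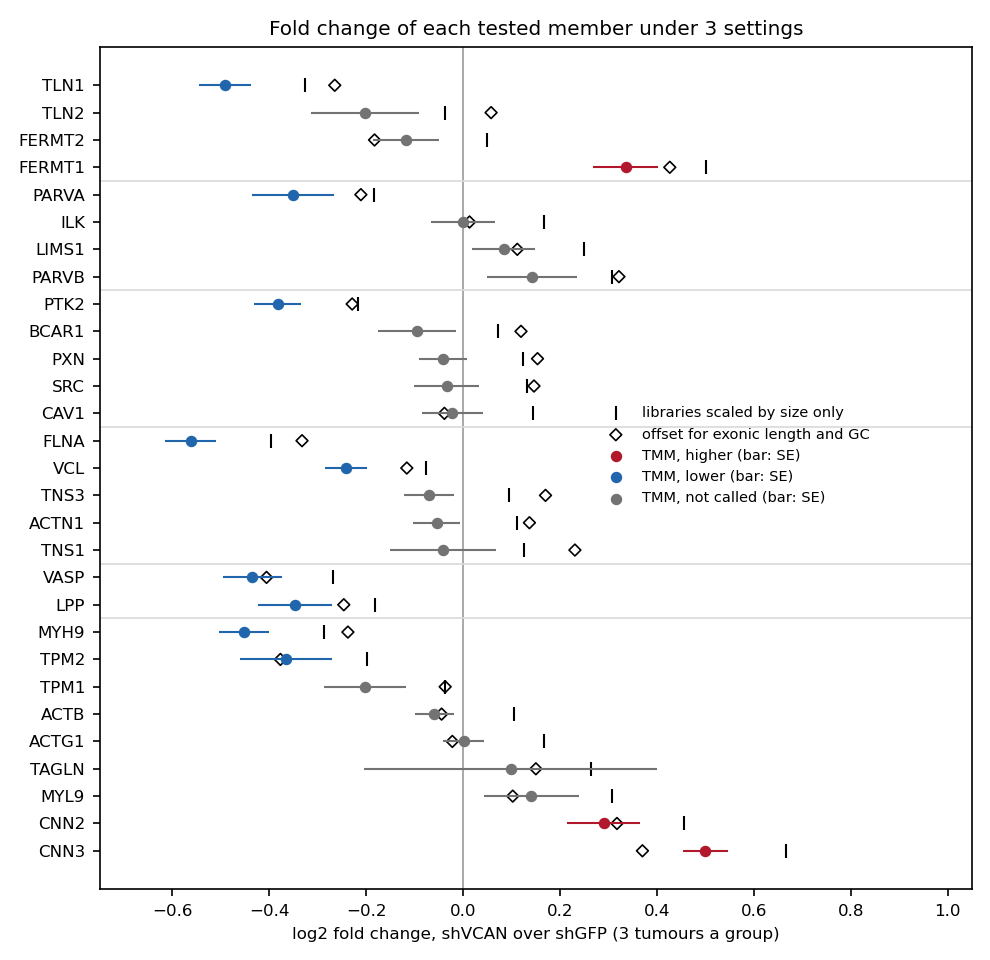
Log2 fold change (shVCAN over shGFP, 3 tumours a group) of each tested member, ordered by role. Filled points with SE bars are the TMM values, coloured by call, vertical ticks are the values with libraries scaled by size alone, and open diamonds those with the offset for exonic length and GC content. Size-only scaling moves every member to the right, and the offset brings the long genes FLNA, TLN1 and MYH9 nearer to 0.

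**Figure D4:**
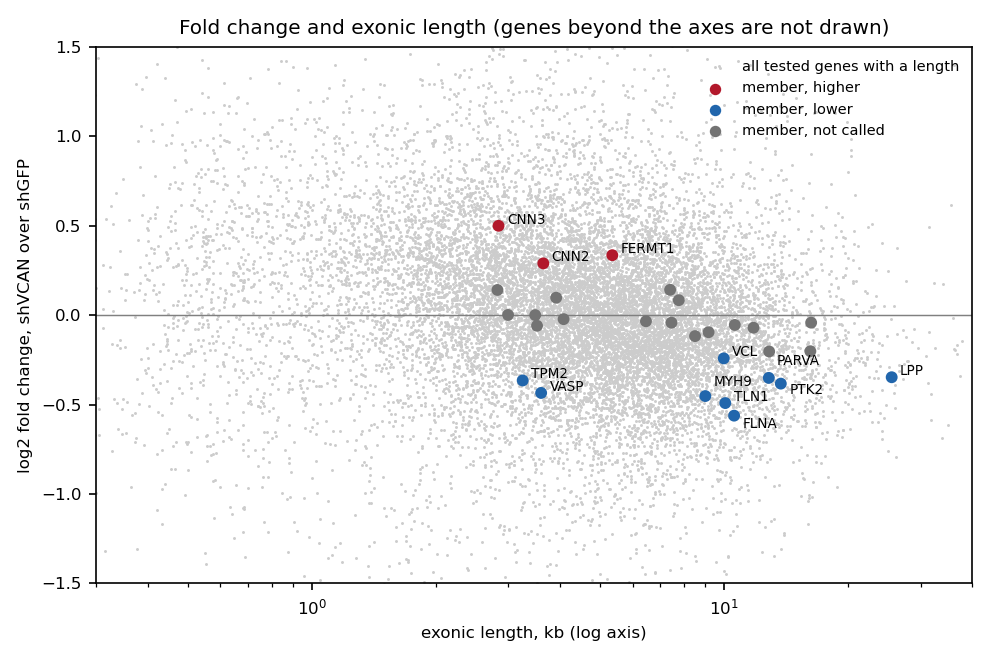
Log2 fold change (shVCAN over shGFP) against exonic length in kb (log axis), with all tested genes that have a length in light grey and the 29 members coloured by call. The called members above 9 kb all lie below 0, and the 3 that rose lie at 2.84 to 5.36 kb.

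Pairs of related members were compared within each library, where scaling between libraries plays no part. Of 9 pairs listed, 7 could be used, since ZYX and ACTN4 left theirs. The log2 count ratio did not overlap between groups in 5 of the 7, beside 48.7% of single genes, and the share among other gene pairs was not computed. The ratio differed most in the parvins, with 0.59, 0.23 and 0.49 (PARVA over PARVB) in shGFP and 0.028, −0.038 and −0.16 in shVCAN, a difference of −0.50 (SE 0.120). The kindlin ratio was −0.021, 0.060 and −0.21 (FERMT1 over FERMT2) in shGFP and 0.49, 0.45 and 0.27 in shVCAN, so that FERMT1 counts passed those of FERMT2 in every shVCAN tumour (difference 0.46, SE 0.105). The difference was −0.30 (SE 0.0912) in the talin ratio (TLN1 over TLN2), 0.16 (SE 0.0403) in the tropomyosin ratio (TPM1 over TPM2) and −0.061 (SE 0.0182) in the actin ratio (ACTB over ACTG1). Each of these 5 had an exact two-sided permutation p = 0.1, the smallest that 3 against 3 tumours allows, and an adjusted p = 0.14 over the 7 pairs. The calponin ratio (CNN2 over CNN3, difference −0.21, SE 0.0879, exact permutation p = 0.2) and the tensin ratio (TNS1 over TNS3, 0.017, SE 0.161, exact permutation p = 0.9) overlapped between groups.

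**Figure D5:**
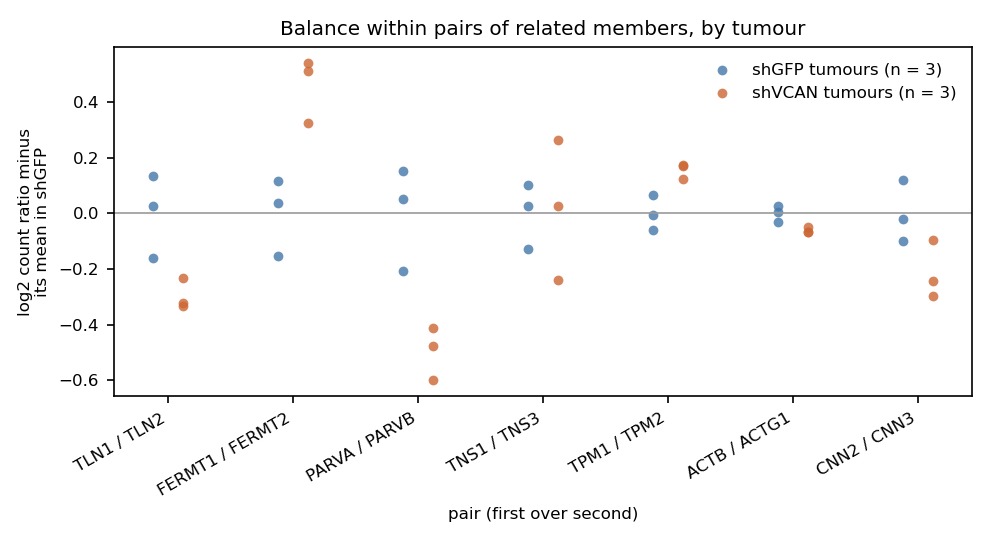
Log2 ratio of counts within pairs of related members, each minus its mean in shGFP, 1 point per tumour (3 shGFP, 3 shVCAN). The shVCAN points are apart from the shGFP points in the talin, kindlin, parvin, tropomyosin and actin pairs and mixed with them in the tensin and calponin pairs.

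The members together took 1.33% ± 0.0827 of all counts in shGFP and 1.36% ± 0.0393 in shVCAN (SD, n = 3). Messenger RNAs of the mitochondrial genome took 13.3% to 16.2% of the counts in shGFP and 6.39% to 7.63% in shVCAN. With those left out of the total, the members' share was 1.56% ± 0.0718 in shGFP and 1.46% ± 0.0343 in shVCAN, so the order of the groups depends on that denominator. In bulk tumours fewer cells of a type and less RNA per cell cannot be told apart.

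Related genes outside the set were counted in the same fit. Among 41 other focal adhesion adaptors and LIM proteins, 16 fell, 4 rose and 21 were not called (median −0.11), and the 48.8% called lay between the 40.3% of all genes and the 56.3% of genes with a mean of at least 20 CPM. KANK2, which caps talin at the rim of adhesions, fell to 138 ± 2.51 CPM (log2 fold change −0.86, SE 0.0534, edgeR adjusted p = 5.63e-14). The tensins TNS2 and TNS4 fell from 65.8 ± 5.17 to 28.3 ± 0.30 CPM and from 26.5 ± 3.48 to 9.27 ± 2.31 CPM, larger changes (−1.22 and −1.51) than those of TNS1 and TNS3. Among 18 other actins, tropomyosins, myosin II subunits and filament-binding proteins, 5 rose, 7 fell and 6 were not called (66.7% called, median 0.0032). MYH14, the heavy chain of non-muscle myosin IIC, rose from 81.1 ± 3.94 to 121 ± 6.64 CPM, in the opposite direction to MYH9. The essential light chain MYL6 rose from 698 ± 15.4 to 906 ± 39.7 CPM and TAGLN3, a transgelin of neurons, from 50.4 ± 2.22 to 95.5 ± 2.76 CPM.

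Among genes of actin turnover and its regulators, 13 of 35 tested genes fell, 5 rose and 17 were not called (51.4% called, again between those shares, median −0.16). LIMK1, the kinase that switches off cofilin, fell from 156 ± 8.25 to 104 ± 5.17 CPM. ARHGAP35, a GTPase-activating protein, fell from 104 ± 4.12 to 66.8 ± 5.24 CPM. PFN2, a profilin that feeds actin monomers to growing filaments, rose from 214 ± 12.1 to 350.2 ± 17.5 CPM. Of the 5 tested caveola genes other than CAV1, 3 fell and 2 rose. EHD2, the ATPase at the caveola neck, fell from 33.4 ± 2.13 to 14.3 ± 1.29 CPM, CAVIN1 from 15.4 ± 1.84 to 8.73 ± 3.01 CPM and PACSIN2 from 86.0 ± 5.81 to 70.6 ± 0.748 CPM, while CAV1 was not called. Of the 3 tested genes of the SRF list only SRF was called. Summed over these lists, 16 genes were higher and 40 lower, and 27 and 25 with library size alone.

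Marker genes of other cell types differed between groups as well. Smooth muscle and pericyte markers summed to 100.3 to 115 CPM in shGFP and 87.7 to 98.6 CPM in shVCAN, with 3 of 8 tested lower, 2 higher and MYH11 at 0. DES and ACTG2 fell to 8.98 ± 2.31 and 1.93 ± 0.458 CPM, and RGS5 rose to 30.4 ± 4.72 CPM. Fibroblast markers summed to 864 to 969 CPM in shGFP and 401 to 499.8 CPM in shVCAN, with 6 of 7 tested lower, led by COL1A2, COL3A1 and COL1A1. Endothelial markers summed to 172 to 179.6 and 111.5 to 126 CPM, with 5 of 6 tested lower, led by CDH5, KDR and TIE1. Macrophage and neutrophil markers summed to 73.9 to 88.7 and 93.7 to 109 CPM, nearly all from S100A9, which epithelial cells also express, with C1QA, C1QB and TYROBP at 0. CD14 fell and S100A9 rose. All 13 mitochondrial messenger RNAs fell, with MT-ND4L, MT-ND4 and MT-ND1 at the smallest p. Among the epithelial markers KRT18, KRT8 and EPCAM fell, by 0.54, 0.19 and 0.29 on the log2 scale. The part of any of these in the members' values was not tested.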

How the data were processed

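Whole-number read counts per gene were deposited by the authors for 6 RNA-seq libraries (3 shGFP, 3 shVCAN), sequenced as paired reads of 150 bases per the labels' protocols. Trim Galore, STAR, DESeq2 and hg38 appear in the submitters' processing notes, without versions or roles. The sources used here do not name the counting program, its annotation or strand setting, or a step that removes mouse reads, so mouse reads that align to human genes may be counted.

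The table had 67071 rows. Of these, 45 were second copies of genes in the pseudoautosomal regions, with 0 counts, and were dropped. Symbols came from a table of identifiers, and coordinates, exonic length and shared exonic bases from GENCODE 29 (GRCh38). Libraries of one group differed by more than counting error (chi-square per gene of 3.45 to 6.61 within groups), and each was counted as 1 replicate.

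Groups were compared with edgeR 4.0.16 in R 4.3.3 (quasi-likelihood test, TMM, filterByExpr, group as the only term). The fit was tested on simulated data in which few genes changed, as many up as down. A shift as broad as that between these groups was not simulated. The SE is the log2 fold change divided by the square root of F. Pair ratios used a pseudocount of 0.5 counts. Per-kilobase levels divide CPM by the exonic length. Alternatives were other scalings, filters and thresholds, DESeq2 1.42.0, limma-voom (limma 3.58.1), a replicate block, a length and GC offset (trends fitted on genes of at least 4 CPM) and each tumour left out. Deviations of same-numbered tumours were hardly correlated, which cannot tell whether those tumours shared a source of small effect.

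The members and the other lists were chosen with earlier results of these data known. The rule for named genes takes VCAN, all 31 members and, per other list, up to 3 called genes with the smallest p. It asks for per-tumour values for members called at a log2 fold change of at least 0.5 and for ACTB, VCL, PXN and PTK2, and those of other members were added after values were seen.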

Additional observations from a re-analysis of the deposited data

How the results depend on the processing

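The 3 rises and 9 falls among the members were the same in number with DESeq2 size factors, upper quartile factors, mitochondrial messenger RNAs left out of the scaling, the 1 CPM filter, limma-voom and an adjusted p under 0.01. Scaling by library size alone gave 7 higher and 5 lower members, 5220 and 1896 genes of the whole table in place of 3120 and 3425 (73.4% of calls higher in place of 47.7%), and 27 and 25 genes of the other pathway lists in place of 16 and 40. Members' medians were 0.11 there and 0.013 with the length and GC offset. The offset called 9 members higher and 10 lower, and 3156 and 3135 genes of the whole table. A log2 fold change of at least 0.5 kept 0 higher and 1 lower member (FLNA; CNN3, at 0.499969, was just under it), 1417 and 1444 genes of the whole table, and 7 and 19 of the other lists. Leaving out 1 tumour gave 3 higher and 8 to 10 lower members.

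Some uncalled members changed sign, most of them near 0 in the main fit, TLN2 (−0.20) and FERMT2 (−0.12) less so. With library size alone PXN stood at 0.12, FERMT2 at 0.049, BCAR1 at 0.071, ACTN1 at 0.11, TNS1 at 0.13, TNS3 at 0.095, CAV1 at 0.14, ACTB at 0.11 and SRC at 0.13. With the offset TLN2 stood at 0.058, PXN at 0.15, BCAR1 at 0.12, ACTN1 at 0.14, TNS1 at 0.23, TNS3 at 0.17, ACTG1 at −0.022 and SRC at 0.15. Of these, PXN, ACTN1, TNS1, TNS3 and SRC were called higher with the offset. With upper quartile factors CAV1 stood at 0.017 and SRC at 0.0054, and ILK at −0.00093 with mitochondrial messenger RNAs left out of the scaling. Leaving out 1 tumour gave −0.030 to 0.043 for ILK, −0.092 to 0.011 for ACTN1, −0.18 to 0.078 for TNS1, −0.072 to 0.033 for CAV1, −0.034 to 0.061 for ACTG1 and −0.084 to 0.031 for SRC. The cause was not tested.

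The share of all counts held by the members differed by 0.037 percentage points (shVCAN minus shGFP), by −0.094 without mitochondrial messenger RNAs in the total, and by −0.0059 to 0.077 with 1 tumour left out. The tensin ratio ranged from −0.11 to 0.15 with 1 tumour left out.

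Correlations of deviations for tumours with the same number were 0.018, 0.016 and −0.027, beside −0.037 to 0.021 for tumours with different numbers. These values cannot tell whether same-numbered tumours shared a source of small effect. With the replicate number as a block 3 members were higher and 10 lower, 3083 and 3428 genes of the whole table were called, and ILK stood at −0.00011. VCAN at 39 to 133 counts and TAGLN at 27 to 42 counts per library carry more counting error than the other tested members.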
